A study of Mus musculus with 151 samples.

Results

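The heat shock genes described here are 10 chaperone genes of the mouse, *Hspa1a*, *Hspa1b*, *Hspa8*, *Hsp90aa1*, *Hsp90ab1*, *Dnajb1*, *Dnaja1*, *Hspb1*, *Hsph1* and *Hspe1*, out of 55291 genes with deposited counts. They were taken by name and not by their values, and all 10 had counts in every group of cells. Of the 10, 9 encode proteins of the cytosol and nucleus, whereas *Hspe1* encodes the co-chaperonin of the mitochondrial matrix. The counts come from single hair cells of the cochlea, each picked by hand and made into 1 library with a Smart-Seq HT kit. They were 55 inner hair cells (IHCs) at postnatal day 14 (P14_WT IHCs), 46 induced outer hair cells at postnatal day 14 (P14_iOHCs) and 50 IHCs at postnatal day 30 (P30_WT IHCs). The study asked what becomes of an IHC when the transcription factor *Tbx2* is deleted after birth, and compared P14_iOHCs with P14_WT IHCs. It compared the P30_WT IHCs with outer hair cells of the same age from an earlier study, which are not among these cells. Comparing the 2 ages of normal IHCs, the same cell type before and after the end of hair cell maturation, was added here.

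All cells came from C57BL/6 mice that carried the alleles vGlut3-P2A-iCreER/+ and Ai9/+. The tamoxifen-dependent recombinase is made from the *Slc17a8* (vGlut3) locus, which is active in IHCs, and the Ai9 allele makes recombined cells fluoresce red. The donors of the P14_iOHCs were in addition Tbx2 flox/-, so that they had 1 null allele of *Tbx2* in all tissues and lost the other allele in IHCs after tamoxifen, whereas the labels of both groups of WT IHCs give no altered allele of *Tbx2*. The P14_iOHCs were picked as red cells of small size and the larger red cells were left out, so they are a selected share of the cells that lost *Tbx2*. The replicates are cells, and as no source used here gives the number of mice behind each group, p-values measure the spread between these cells only.

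Chaperones hold unfolded protein chains and help them fold. Hsp70 proteins bind short exposed stretches under the control of J-proteins, which start ATP hydrolysis, and of Hsp110 proteins, which release the nucleotide, while Hsp90 proteins act later on kinases, receptors and other clients. Heat and other stress release heat shock factor 1, which binds inverted GAA units in the promoters of the inducible members, whereas *Hspa8* and *Hsp90ab1* are made in unstressed cells. In the cochlea, heat shock proteins are known for their induction after heat, noise or ototoxic drugs.

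Cells were released from the cochlea by 20 min of enzymatic digestion at 37 °C and another 20 min at 25 °C, in the same protocol for each group. No undigested cells were analysed, so the levels of these genes before and after digestion cannot be told apart.

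The inducible pair *Hspa1a* and *Hspa1b* lies on the minus strand of chromosome 17 (GRCm38), *Hspa1a* from 34969190 to 34972156 and *Hspa1b* from 34956436 to 34959238, each as 1 exon. Their promoters are shown because the pair stands apart from the other members below and because all but 1 of the 150 bases before the annotated start are the same in both. The promoter of *Hspb1*, the member with the largest fold change in P14_iOHCs, is shown beside them, as are windows of 30 bases that hold the matches of *Hspe1* and the 2 of 3 matches of *Hsph1* that lie after its start (the other, before the start, is not printed). The sequences are from RefSeq on GRCm38.p6, read 5′ to 3′ on the gene's strand, and capitals mark matches to GAANNTTC or TTCNNGAA, the 2 arrangements of a pair of inverted GAA units (each is its own reverse complement, so both strands were searched, and neighbouring matches may overlap).

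Hspa1a, chr17:34972157-34972306, minus strand: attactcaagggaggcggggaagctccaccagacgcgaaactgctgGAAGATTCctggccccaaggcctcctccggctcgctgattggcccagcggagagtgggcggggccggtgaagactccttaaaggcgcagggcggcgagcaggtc

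Hspa1b, chr17:34959239-34959388, minus strand: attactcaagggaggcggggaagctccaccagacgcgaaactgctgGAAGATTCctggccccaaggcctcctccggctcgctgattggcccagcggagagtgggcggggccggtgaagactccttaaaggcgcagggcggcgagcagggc

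Hspb1, chr5:135887769-135887918, plus strand: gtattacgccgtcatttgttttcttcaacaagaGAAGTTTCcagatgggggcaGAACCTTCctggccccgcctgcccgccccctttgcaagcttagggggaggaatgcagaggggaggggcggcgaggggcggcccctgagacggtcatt

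Hspe1, chr1:55088053-55088082, plus strand: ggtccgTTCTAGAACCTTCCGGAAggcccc

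Hsph1, chr5:149636272-149636301, minus strand: aTTCTGGAAAGTTCtcctcagtaggctaca

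Of the 10 genes, 7 had a promoter of 250 bases before to 50 bases after the start, all but *Hspa8*, *Hsp90aa1* and *Hsp90ab1*, and 6 of the 7 held a match, the exception being *Dnajb1*. A match was present in 15.1% of all 32851 promoters of the same length. Matches that joined into 3 GAA units in a row were present in *Hspe1* and *Hsph1* and in 0.603% of all promoters. *Hspa1a* and *Hspa1b* had the same single match, 104 bases before the start. A match describes the letters only and no binding was measured.

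Likeness between genes also limits how the counts can be assigned. Of the 100-base windows along the transcripts of *Hspa1a* and *Hspa1b*, 56.5% and 49.9% occur unchanged in another gene's transcript, 1350 of them in each other. The share was 44% for *Hspb1* (with the pseudogene *Hsp25-ps1*), 38% for *Hsp90aa1*, 28.5% for *Hspa8*, 16.6% for *Dnaja1* and 11% for *Hspe1*, and 0% for *Hsp90ab1*, *Dnajb1* and *Hsph1*. How reads that fit several genes were counted is not given in the sources used here, so the split between *Hspa1a* and *Hspa1b* is uncertain and their sum is given beside each of them.

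Cells had between 4326416 and 25035444 counts in total. These totals fell in a lower set of up to 10267217 (16 P14_WT IHCs, 12 P14_iOHCs and 23 P30_WT IHCs) and an upper set from 11814928 (39, 34 and 27 cells). The lower set held the P14_WT IHCs numbered 1 to 16 and the P30_WT IHCs numbered 1 to 23 in the labels. Among the P14_iOHCs the numbers of the sets overlapped, from 1 to 18 in the lower and from 6 to 46 in the upper set. A count of 3 was worth between 0.120 and 0.693 counts per 1000000 (CPM) in a cell, and the reads carry no molecular identifiers. The intervals given for shares of cells treat each cell as an independent draw. They cover the sampling of cells only, and not differences between mice. *Tbx2* was at 260 ± 127 CPM in P14_WT IHCs and 69.3 ± 87.4 CPM in P14_iOHCs (mean ± SD over 55 and 46 cells), and the counts do not show which exons were read. The IHC gene *Slc17a8* had counts in all 55 P14_WT IHCs and all 50 P30_WT IHCs, and the outer hair cell gene *Slc26a5* had counts in all 46 P14_iOHCs but in 2 of 55 P14_WT IHCs. The P14_iOHCs still had *Slc17a8* at 123 ± 194 CPM, against 1230 ± 317 CPM in P14_WT IHCs (mean ± SD).

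The 10 genes together took 1.00% of the counts in P14_WT IHCs, 0.863% in P14_iOHCs and 1.38% in P30_WT IHCs. Most of this came from 3 genes that were read in all 151 cells. *Hspa8*, *Hsp90aa1* and *Hsp90ab1* summed to a median of 8979 CPM in P14_WT IHCs (from 3124 to 13822 CPM), 7157 CPM in P14_iOHCs (from 3757 to 12548 CPM) and 12486 CPM in P30_WT IHCs (from 5659 to 17209 CPM). The members thus lay far apart in level, from *Hsp90aa1* and *Hspa8*, whose mean log2(CPM + 1) exceeded that of 99.8% or more of 12531 genes in each group, to *Hspb1*, which had no count in most cells and exceeded 2.28% of these genes in P14_WT IHCs, 32.1% in P14_iOHCs and 9.24% in P30_WT IHCs.

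**Figure D1:**
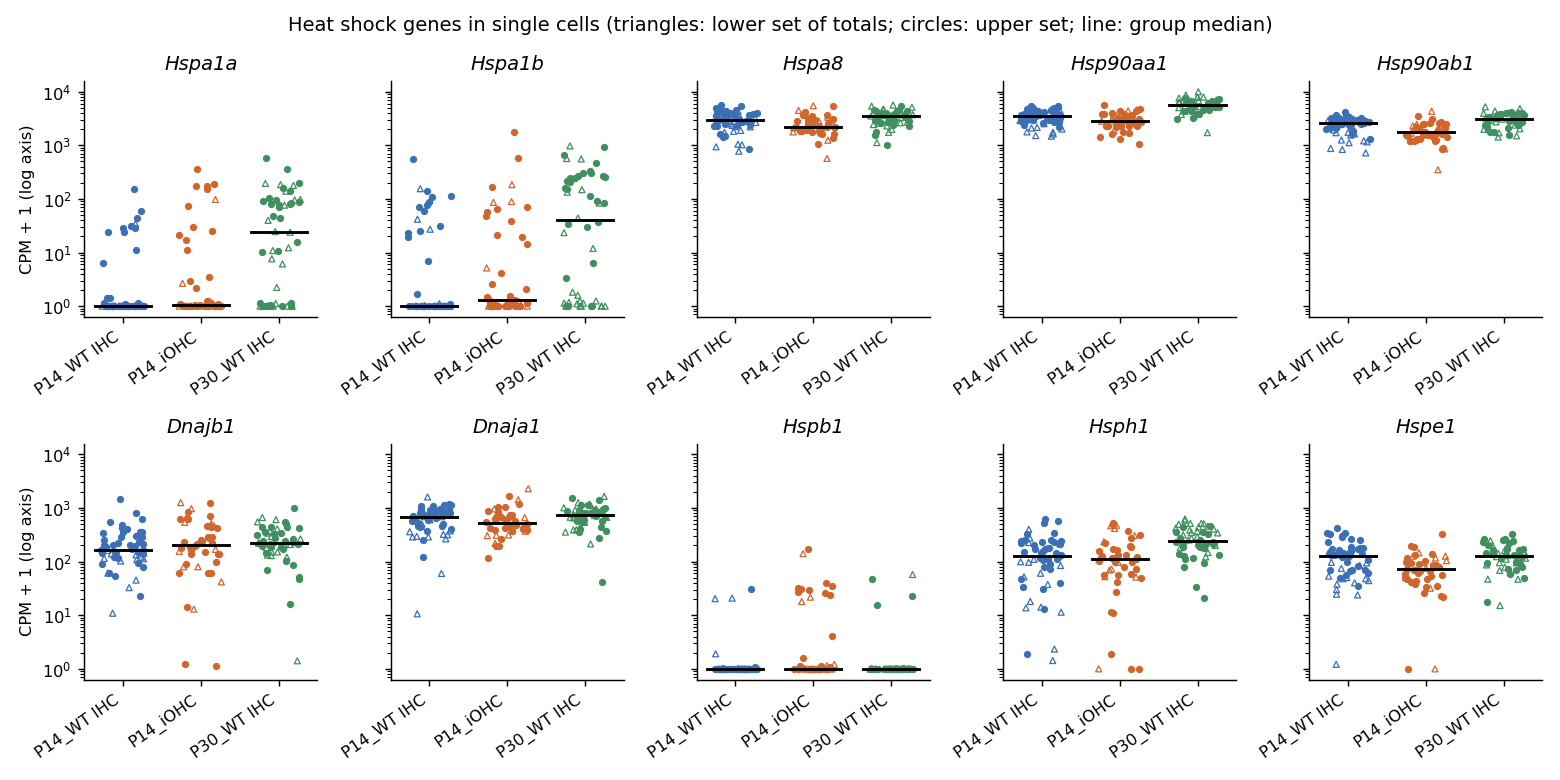
Level of each of the 10 heat shock genes in every cell, as CPM + 1 on a log axis, for P14_WT IHCs (55 cells), P14_iOHCs (46 cells) and P30_WT IHCs (50 cells). Points are cells, open triangles the lower and circles the upper set of totals, and black lines group medians; most cells have *Hspa1a* and *Hspa1b* either near 0 or above 10 CPM, with medians of 23.2 and 39.7 CPM in P30_WT IHCs and of 0 in P14_WT IHCs.

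Levels between genes were compared as transcripts per 1000000 (TPM), which divide by the exon length. *Hsp90aa1* ranked first in each group, at 2151 ± 684 TPM in P14_WT IHCs, 1670 ± 547 TPM in P14_iOHCs and 3356 ± 825 TPM in P30_WT IHCs (mean ± SD over 55, 46 and 50 cells). *Hsp90ab1* came next with 1978 ± 680, 1395 ± 610 and 2352 ± 728 TPM in the same order, followed by *Hspa8* with 1703 ± 681, 1309 ± 602 and 1817 ± 600 TPM. The gap between *Hspa8* and the fourth gene was wider than the SD of either in each group. The gap between *Hsp90aa1* and *Hsp90ab1* exceeded the larger SD only in P30_WT IHCs, where *Hsp90aa1* was the higher in 86.0% of cells. In the other groups this share was 58.2% (P14_WT IHCs) and 71.7% (P14_iOHCs). The remaining genes formed a continuum without such a gap. *Hspe1*, *Dnaja1* and *Dnajb1* lay between 125 and 227 TPM, *Hsph1* between 46.4 and 87.6 TPM, *Hspa1b* between 24.7 and 134 TPM, *Hspa1a* between 6.71 and 54.2 TPM, and *Hspb1* between 3.06 and 28.5 TPM.

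In P14_iOHCs, 2 of the 10 chaperone genes differed from P14_WT IHCs. *Hspb1*, a small heat shock protein that holds unfolded proteins and binds actin, rose 10.4-fold, and *Hsp90ab1*, the constitutive Hsp90, fell to 0.789 of its level in P14_WT IHCs. In the quasi-likelihood test of edgeR, adjusted by Benjamini-Hochberg over 13673 genes, *Hspb1* was thus 1 of the 10 members called higher (8.86% of all genes tested were) and *Hsp90ab1* 1 of the 10 called lower (5.45% of all genes tested were). With the study's limit of an absolute log2 fold change over 2 as well, *Hspb1* was the 1 member called, against 9.62% of all genes. *Hspb1* met the filter of the test (at least 5 counts in at least 10 cells) through the group in which it is high, with 14 such cells among the P14_iOHCs and 4 among the P14_WT IHCs, and so had to differ to be tested. The median log2 fold change was -0.02 over the 10 members and 0.11 over all genes tested.

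Between P14 and P30, 4 chaperone genes rose in IHCs. *Hsp90aa1*, the inducible Hsp90, rose 1.77-fold, *Hsp90ab1* 1.33-fold, the Hsp110 gene *Hsph1* 1.90-fold and *Hspa1a* 8.94-fold in P30_WT IHCs. *Hspb1* had too few counts for the test, and of the other 9 members 4 were called higher and 0 lower, by edgeR with Benjamini-Hochberg adjustment over 12946 genes, against 2.02% of all genes higher and 2.38% lower. An unadjusted p under 0.05 was reached by 6 of the 9, the 2 others being *Hspa1b* and *Hspa8*. The share of all genes at that unadjusted limit is not given here. The shares above are for adjusted p and cannot be set against it. *Hspa1a* alone also passed the limit on the fold, as 2.09% of all genes did. The median log2 fold change was 0.41 over the 9 members and 0.04 over all genes. Both comparisons use the same P14_WT IHCs, so they are not independent of each other.

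**Figure D2:**
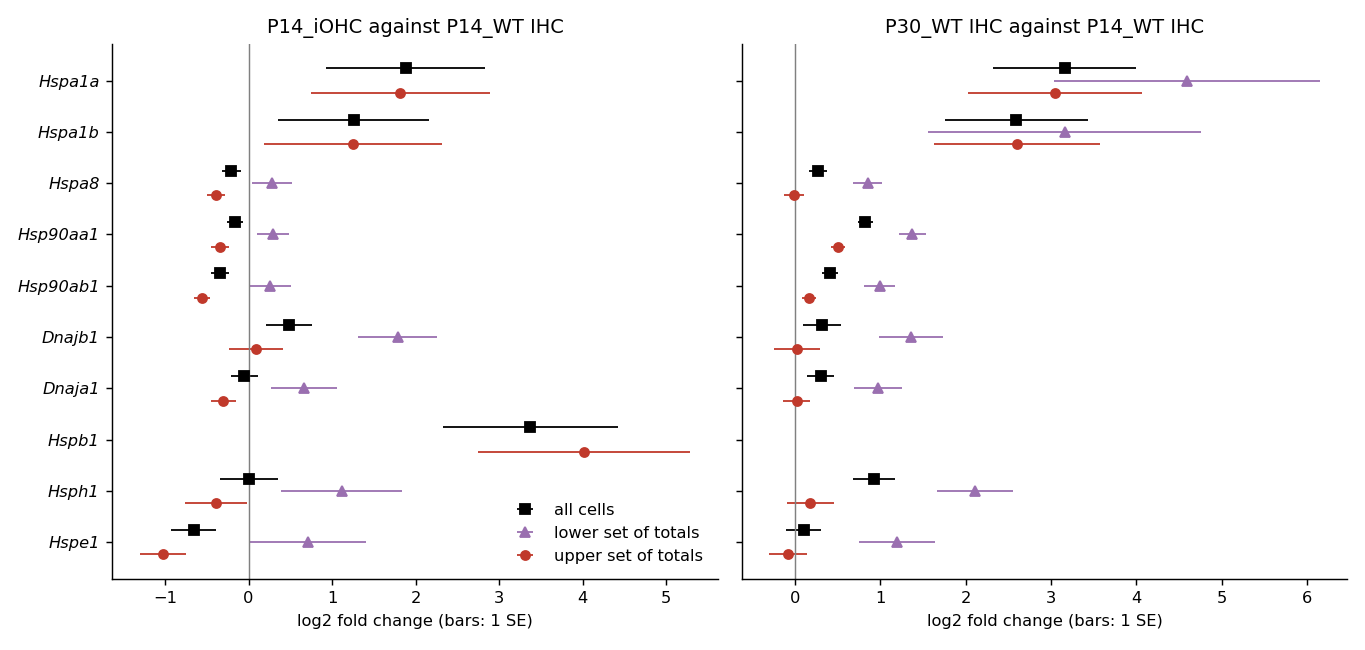
log2 fold change of each heat shock gene with 1 SE (edgeR), P14_iOHCs against P14_WT IHCs on the left and P30_WT IHCs against P14_WT IHCs on the right, for all cells (squares) and for the lower (triangles) and upper (circles) set of totals apart. Genes that failed the filter on counts in a fit have no point; the circle lies left of the triangle for all 7 genes on the left and all 9 on the right that have values in both sets, as for *Hsph1* on the right, at 0.18 and 2.11.

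These changes depended on the set of totals. In P14_WT IHCs the 10 genes summed to a median of 6528 CPM in the 16 cells of the lower set and 11313 CPM in the 39 cells of the upper set, whereas in P30_WT IHCs the medians were 15379 and 14008 CPM and in P14_iOHCs 9475 and 8100 CPM. Within the upper set, 5 of the 10 members were called between P14_iOHCs and P14_WT IHCs, namely *Hspb1* as higher and *Hspa8*, *Hsp90aa1*, *Hsp90ab1* and *Hspe1* as lower, where 6.71% of all genes tested in that set were higher and 4.05% lower. Within the lower set *Dnajb1* was the 1 member called, as higher, against 1.24% of all genes higher and 0.89% lower. Between P30_WT IHCs and P14_WT IHCs, *Hsp90aa1* was the 1 member called within the upper set, as higher (1.41% of all genes were higher and 1.87% lower). Within the lower set 5 members were called higher in this comparison, *Hspa8*, *Hsp90aa1*, *Hsp90ab1*, *Dnajb1* and *Hsph1* (0.709% of all genes were higher and 0.878% lower). A fit with the interaction of group and set, chosen after the data were seen, gave adjusted p-values under 0.05 for 3 members (*Hsp90aa1*, *Hsp90ab1* and *Hspe1*) in the first comparison, where 6.63% of all genes had one, and for 4 (*Hspa8*, *Hsp90aa1*, *Hsp90ab1* and *Hsph1*) in the second, where 4.39% had one. The mitochondrial share of the counts was 9.13 ± 4.14% in the lower and 5.48 ± 2.04% in the upper set of P14_WT IHCs (mean ± SD over 16 and 39 cells), and 12.4 ± 5.84% and 6.76 ± 1.43% in those of P30_WT IHCs (23 and 27 cells). In P14_iOHCs it was not higher in the lower set, at 5.95 ± 1.39% and 6.35 ± 1.74% (12 and 34 cells). A score of immediate-early genes, the mean log2(CPM + 1) of 19 genes that respond within minutes to dissociation among other stimuli, was 2.92 ± 0.91 in P14_WT IHCs and 4.28 ± 1.01 in P30_WT IHCs of the lower set, and 3.42 ± 0.85 and 3.25 ± 0.71 in those of the upper set (mean ± SD). In P14_iOHCs the score was 3.25 ± 1.97 in the lower and 4.03 ± 1.76 in the upper set. The parts of RNA quality and dissociation in these differences were not tested.

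*Hspa1a* (ENSMUSG00000091971.3), an Hsp70 gene that is nearly silent without stress, had at least 1 count in 16 of 55 P14_WT IHCs (29.1%, 95% Wilson interval 18.8% to 42.1%), 25 of 46 P14_iOHCs (54.3%, 40.2% to 67.8%) and 38 of 50 P30_WT IHCs (76.0%, 62.6% to 85.7%). Its lowest, median and highest levels were 0, 0 and 155 CPM in P14_WT IHCs, 0, 0.0545 and 361 CPM in P14_iOHCs and 0, 23.2 and 566 CPM in P30_WT IHCs. The groups overlapped fully at the low end, and 7 of the 50 P30_WT IHCs lay above the highest P14_WT IHC. The log2 fold change was 3.16 ± 0.84 (SE) in P30_WT IHCs (edgeR, adjusted p = 0.00954) and 1.89 ± 0.95 (SE) in P14_iOHCs (edgeR, adjusted p = 0.211). In P30_WT IHCs it was 4.59 within the lower set (edgeR, adjusted p = 0.189) and 3.05 within the upper set (edgeR, adjusted p = 0.0895), both without passing the threshold.

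*Hspa1b* (ENSMUSG00000090877.3) is the neighbouring gene of an almost identical inducible Hsp70 and had counts in 19 of 55 P14_WT IHCs (34.5%, 95% Wilson interval 23.4% to 47.7%), 29 of 46 P14_iOHCs (63.0%, 48.6% to 75.5%) and 40 of 50 P30_WT IHCs (80.0%, 67.0% to 88.8%). The median levels were 0, 0.284 and 39.7 CPM and the highest 542, 1733 and 971 CPM in the same order. A few cells carried most of the RNA. In P14_iOHCs 54.7% of the summed level of *Hspa1b* came from 1 cell, without which the mean fell from 68.9 to 31.9 CPM, whereas in P30_WT IHCs the highest cell held 12.2%. The log2 fold change was 2.59 ± 0.84 (SE) in P30_WT IHCs (edgeR, adjusted p = 0.0550) and 1.26 ± 0.91 (SE) in P14_iOHCs (edgeR, adjusted p = 0.460), neither of which passed the threshold. In P30_WT IHCs it passed under 8 of 16 alternatives, with values between 2.19 and 6.99 and adjusted p-values between 0.000457 and 0.694.

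Summed over the pair, the median level was 0 CPM in P14_WT IHCs, 0.925 CPM in P14_iOHCs and 150 CPM in P30_WT IHCs. The sum was 6.68-fold higher in P30_WT IHCs than in P14_WT IHCs (log2 fold change 2.74 ± 0.75 SE, edgeR, adjusted p = 0.0135), and its log2 fold change in P14_iOHCs was 1.42 ± 0.86 (SE, edgeR, adjusted p = 0.338). Cells were also counted as positive from 10 CPM of either gene, a limit set after the values were seen, which 2 to 3 cells per group exceeded by less than 10 CPM. Positive were 19 of 55 P14_WT IHCs (34.5%, 95% Wilson interval 23.4% to 47.7%), 20 of 46 P14_iOHCs (43.5%, 30.2% to 57.8%) and 38 of 50 P30_WT IHCs (76.0%, 62.6% to 85.7%). The order of the groups was the same within the lower set of totals (3 of 16, 3 of 12 and 14 of 23 cells) and within the upper set (16 of 39, 17 of 34 and 24 of 27 cells).

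The 2 genes were not always read in the same cell. Of the cells positive for either, both passed 10 CPM in 6 of 19 P14_WT IHCs, 6 of 20 P14_iOHCs and 20 of 38 P30_WT IHCs. The rest passed for *Hspa1a* alone (4, 6 and 8 cells) or for *Hspa1b* alone (9, 8 and 10 cells).

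**Figure D3:**
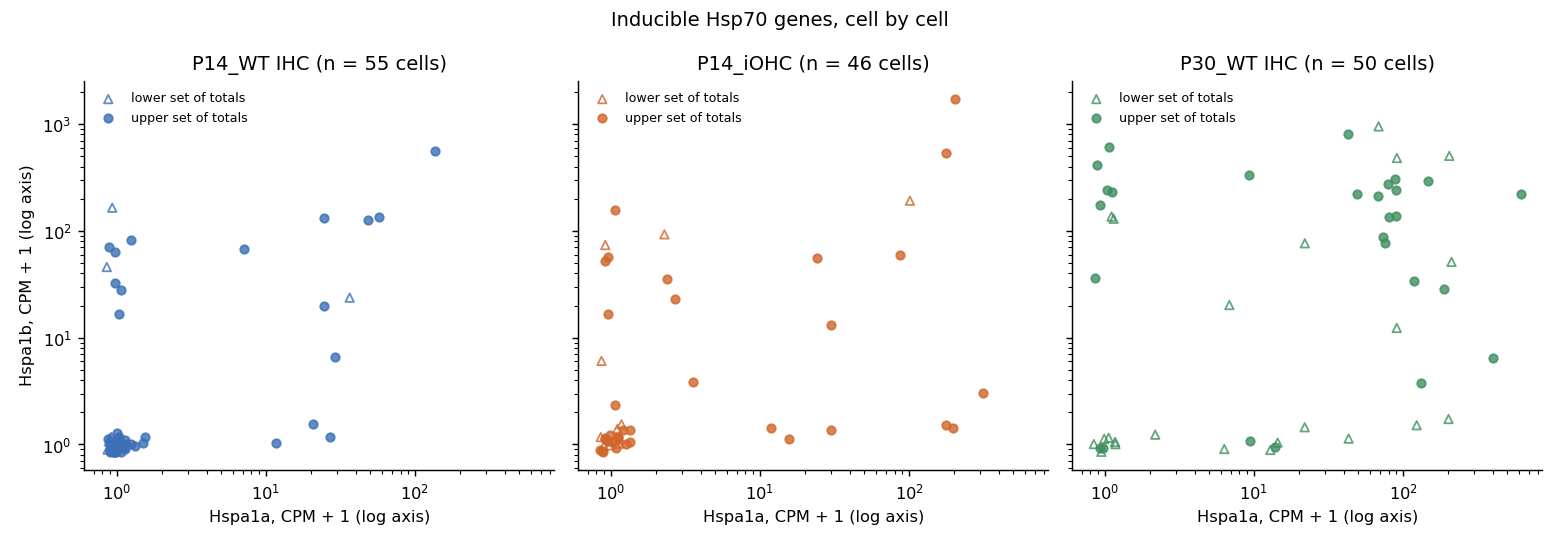
*Hspa1b* against *Hspa1a* in each cell, as CPM + 1 on log axes and with points moved slightly at random so that cells at 0 can be seen, for the lower (triangles) and upper (circles) set of totals. In P14_WT IHCs 30 of 55 cells had no count of either gene, in P30_WT IHCs 5 of 50, and cells along either axis have one gene without the other.

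*Hspa8* (ENSMUSG00000015656.17, chromosome 9, from 40800984 to 40810087, plus strand) encodes the constitutive Hsp70, Hsc70, which also uncoats clathrin vesicles. Its lowest, median and highest levels were 773, 2915 and 5698 CPM in P14_WT IHCs, 567, 2208 and 5439 CPM in P14_iOHCs and 1003, 3471 and 5624 CPM in P30_WT IHCs. The ranges overlapped almost entirely, with 34 of 46 P14_iOHCs below the median of the P14_WT IHCs and 30 of 50 P30_WT IHCs above it. Neither the log2 fold change of -0.21 ± 0.11 (SE) in P14_iOHCs (edgeR, adjusted p = 0.259) nor that of 0.27 ± 0.11 (SE) in P30_WT IHCs (edgeR, adjusted p = 0.176) passed the threshold. Within the upper set it was -0.39 in P14_iOHCs (edgeR, adjusted p = 0.0123) and -0.01 in P30_WT IHCs (edgeR, adjusted p = 0.999), and within the lower set 0.85 in P30_WT IHCs (edgeR, adjusted p = 0.00145).

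*Hsp90aa1* (ENSMUSG00000021270.13, chromosome 12, from 110690605 to 110702728, minus strand) encodes the stress-inducible Hsp90. Its lowest, median and highest levels were 1471, 3460 and 5499 CPM in P14_WT IHCs, 1050, 2843 and 5597 CPM in P14_iOHCs and 1718, 5745 and 9935 CPM in P30_WT IHCs. The P30_WT IHCs stood clear of the P14_WT IHCs for the most part, with 47 of 50 cells above the P14 median and 28 of 50 above the highest P14_WT IHC. At P30 the log2 fold change was 0.82 ± 0.09 (SE, edgeR, adjusted p = 7.95e-13). It was 1.38 within the lower set (edgeR, adjusted p = 1.98e-08) and 0.51 within the upper set (edgeR, adjusted p = 7.9e-06), where 13 of 27 P30_WT IHCs exceeded every P14_WT IHC, and it passed the threshold under all 17 alternatives run. In P14_iOHCs the log2 fold change was -0.16 ± 0.10 (SE, edgeR, adjusted p = 0.326), against -0.34 within the upper set (edgeR, adjusted p = 0.0173) and 0.29 within the lower set (edgeR, adjusted p = 0.815).

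*Hsp90ab1* (ENSMUSG00000023944.14, chromosome 17, from 45567775 to 45573271, minus strand) is the constitutive Hsp90 gene. Its lowest, median and highest levels were 719, 2595 and 4186 CPM in P14_WT IHCs, 348, 1729 and 4299 CPM in P14_iOHCs and 1420, 3148 and 5199 CPM in P30_WT IHCs. Of the P14_iOHCs, 40 of 46 lay below the median of the P14_WT IHCs, and 35 of 50 P30_WT IHCs lay above it, though the ranges overlapped. The log2 fold change was -0.34 ± 0.11 (SE) in P14_iOHCs (edgeR, adjusted p = 0.0180) and 0.41 ± 0.09 (SE) in P30_WT IHCs (edgeR, adjusted p = 0.00151). In P14_iOHCs it was -0.56 within the upper set (edgeR, adjusted p = 3.22e-06), where 9 of 34 cells lay below every P14_WT IHC, but 0.26 within the lower set (edgeR, adjusted p = 0.967). In P30_WT IHCs it was 0.99 within the lower set (edgeR, adjusted p = 0.000257) and 0.17 within the upper set (edgeR, adjusted p = 0.525), so that the call at P30 rests on the lower set.

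The J-proteins *Dnajb1* (ENSMUSG00000005483.10, chromosome 8) and *Dnaja1* (ENSMUSG00000028410.13, chromosome 4) are the Hsp40 partners of cytosolic Hsp70. *Dnajb1*, the inducible one, had lowest, median and highest levels of 9.91, 165 and 1461 CPM in P14_WT IHCs, 0.115, 201 and 1256 CPM in P14_iOHCs and 0.414, 225 and 1009 CPM in P30_WT IHCs. *Dnaja1* had 9.62, 685 and 1603 CPM, then 116 (the lowest), 522 and 2283 CPM, and 40.7, 731 and 1642 CPM in the same order. The ranges of the groups overlapped widely for both genes. The log2 fold changes in P14_iOHCs were 0.49 ± 0.28 (SE) for *Dnajb1* (edgeR, adjusted p = 0.298) and -0.05 ± 0.17 (SE) for *Dnaja1* (edgeR, adjusted p = 0.921). In P30_WT IHCs they were 0.32 ± 0.22 (SE, edgeR, adjusted p = 0.664) and 0.30 ± 0.15 (SE, edgeR, adjusted p = 0.387). *Dnajb1* passed the threshold within the lower set in both comparisons, with log2 fold changes of 1.78 (edgeR, adjusted p = 0.0304) and 1.36 (edgeR, adjusted p = 0.0390), against 0.09 and 0.03 within the upper set.

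*Hspb1* (ENSMUSG00000004951.10, chromosome 5, from 135887919 to 135889563, plus strand), which encodes Hsp25, had counts in 5 of 55 P14_WT IHCs (9.09%, 95% Wilson interval 3.95% to 19.6%), 20 of 46 P14_iOHCs (43.5%, 30.2% to 57.8%) and 5 of 50 P30_WT IHCs (10.0%, 4.35% to 21.4%). The highest levels were 29.5, 173 and 56.3 CPM, and the median was 0 in each group. From 10 CPM upwards there were 3 P14_WT IHCs, 12 P14_iOHCs and 4 P30_WT IHCs, and 6 P14_iOHCs lay above the highest P14_WT IHC. In P14_iOHCs the log2 fold change was 3.38 ± 1.05 (SE, edgeR, adjusted p = 0.0155), and 4.02 ± 1.27 within the upper set (SE, edgeR, adjusted p = 0.0251). The gene passed under 11 of 15 alternatives. These reuse the same cells, and the gene met the filter through the P14_iOHCs, as given above, so the passes are not separate support. With DESeq2 the adjusted p was 0.101, and with a score of immediate-early genes as a covariate in edgeR the log2 fold change was 2.39 (adjusted p = 0.152).

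Some markers of supporting cells, which surround hair cells, changed in the same comparison as *Hspb1*. Of 18 such markers 12 were tested, of which 6 were called higher and 2 lower in P14_iOHCs (8.86% and 5.45% of all genes tested were). Within the upper set 2 were higher and 2 lower (6.71% and 4.05% of all genes tested in that set were). Their summed level had a median of 6241 CPM in P14_iOHCs (from 2388 to 19972 CPM) and 6155 CPM in P14_WT IHCs (from 4013 to 9945 CPM), *Prox1* was at 0 in both groups and *Cybrd1* in the P14_WT IHCs. Across the 46 P14_iOHCs, *Hspb1* had a Spearman's rho of 0.37 with the score of these markers, a description over cells that share totals. With that score as a covariate, the log2 fold change of *Hspb1* was 0.98 ± 1.17 (SE, edgeR, adjusted p = 0.731). Of 6 glial markers, 3 were tested and 3 were higher, 1 of 2 tested within the upper set, with a summed level of 29.1 CPM at the median and 277 CPM at most in P14_iOHCs and of 0 and 77.2 CPM in P14_WT IHCs. Of 7 fibroblast and mesenchyme markers, 3 were tested and 1 was higher, *Lum*, at 6.96-fold (edgeR, adjusted p = 0.0331), which was not called within the upper set (edgeR, adjusted p = 0.163). Their summed level was 23.8 CPM at the median and 4522 CPM at most in P14_iOHCs and 0.224 and 771 CPM in P14_WT IHCs. The part of these cell types in the level of *Hspb1* was not tested beyond the covariate.

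*Hsph1* (ENSMUSG00000029657.15, chromosome 5, from 149614287 to 149636376, minus strand) encodes Hsp105, an Hsp110 protein that exchanges the nucleotide of Hsp70. Its lowest, median and highest levels were 0.430, 125 and 620 CPM in P14_WT IHCs, 0, 109 and 517 CPM in P14_iOHCs and 20.0, 241 and 622 CPM in P30_WT IHCs. Of the P30_WT IHCs 43 of 50 lay above the median of the P14_WT IHCs. The log2 fold change was 0.92 ± 0.25 (SE) at P30 (edgeR, adjusted p = 0.0108) and 0.00 ± 0.35 (SE) in P14_iOHCs (edgeR, adjusted p = 0.999). At P30 it was 2.11 within the lower set (edgeR, adjusted p = 0.00286), where all 23 P30_WT IHCs exceeded the P14 median, and 0.18 ± 0.28 within the upper set (SE, edgeR, adjusted p = 0.999). The rise of *Hsph1* thus rests on the lower set too.

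*Hspe1* (ENSMUSG00000073676.4, chromosome 1, from 55088132 to 55091307, plus strand), the Hsp10 lid of the mitochondrial chaperonin, starts head to head with *Hspd1*, the gene of its Hsp60 partner, and the exons of the pair overlap by 112 bases. Its lowest, median and highest levels were 0.215, 129 and 424 CPM in P14_WT IHCs, 0, 73.2 and 329 CPM in P14_iOHCs and 14.2, 128 and 332 CPM in P30_WT IHCs. Of the P14_iOHCs 40 of 46 lay below the median of the P14_WT IHCs. The log2 fold change of -0.66 ± 0.27 (SE) did not pass the threshold over all cells (edgeR, adjusted p = 0.0952) but was -1.03 ± 0.27 (SE) within the upper set (edgeR, adjusted p = 0.00531). In P30_WT IHCs it was 0.10 ± 0.21 (SE, edgeR, adjusted p = 0.960). *Hspd1* had log2 fold changes of -0.43 ± 0.37 (SE) in P14_iOHCs (edgeR, adjusted p = 0.573) and -0.19 ± 0.41 (SE) in P30_WT IHCs (edgeR, adjusted p = 0.967).

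The spread between cells differed widely among the members. The SD of log2(CPM + 1) was lowest for *Hsp90aa1* in each group (0.49 in P14_WT IHCs, 0.51 in P14_iOHCs and 0.44 in P30_WT IHCs), with *Hsp90ab1* and *Hspa8* next, and it was highest for *Hspa1b* (2.78, 3.02 and 3.69). The median over 12531 genes tested in both comparisons was 2.02, 2.20 and 2.17. In P30_WT IHCs 0.0399% of these genes had a larger SD than *Hspa1b* and 1.53% a larger one than *Hspa1a*. *Dnajb1* had an SD of 1.23 in P14_WT IHCs, 2.14 in P14_iOHCs and 1.48 in P30_WT IHCs, and *Hsph1* had 1.94, 2.28 and 0.98.

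**Figure D4:**
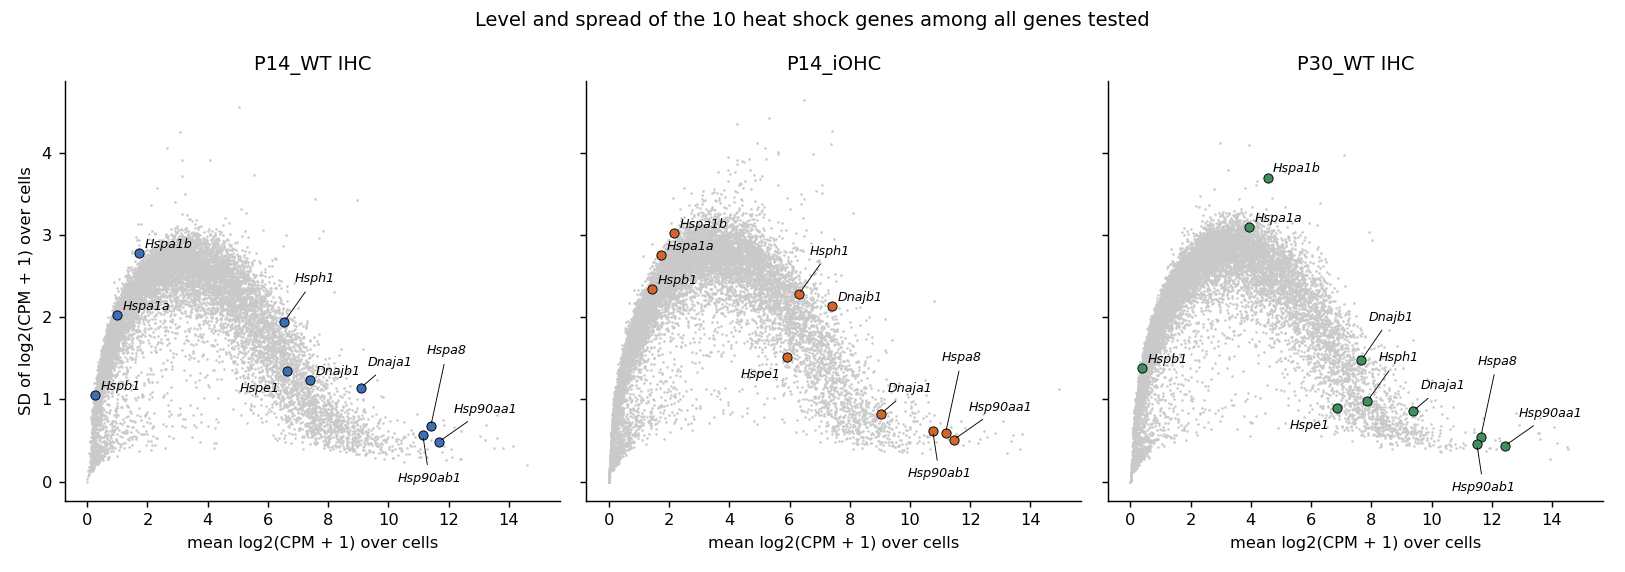
SD against mean of log2(CPM + 1) over the cells of each group, for the 12531 genes tested in both comparisons (grey) and the 10 heat shock genes (coloured and named). *Hspa8*, *Hsp90aa1* and *Hsp90ab1* lie at the right with SDs of 0.44 to 0.67, and *Hspa1b* lies at the upper edge of the cloud, with an SD of 3.69 in P30_WT IHCs.

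The spread was compared by limma on the absolute deviations of log2(CPM + 1) from the group median. In P14_iOHCs it was larger for *Hspb1*, with mean deviations of 1.44 and 0.27 in P14_iOHCs and P14_WT IHCs (limma, adjusted p = 0.0111), 1 of 10 members against 11.4% of all genes with a larger spread. As its median is 0 in both groups, this deviation is the mean level itself and adds nothing to the difference in level. The spread was smaller for 0 of the 10 (3.73% of all genes). At an unadjusted p under 0.05, 0 of the 10 had a smaller spread. *Dnajb1* had mean deviations of 1.43 and 0.90 (limma, adjusted p = 0.145). In P30_WT IHCs the spread was larger for *Hspa1a*, at 2.76 against 1.00 in P14_WT IHCs (limma, adjusted p = 0.000320), and for *Hspa1b*, at 3.33 against 1.72 (limma, adjusted p = 0.0202). Of these 2 calls 1 was left with a pseudocount of 0.1, and within the sets of totals 1 member was called in the lower and 0 in the upper set. Over all cells these were 2 of 9 members, against 2.93% of all genes, and the spread was smaller for 0 of 9 (1.94% of all genes), with 1 at an unadjusted p under 0.05, *Hsph1*, at 0.73 against 1.35 (limma, adjusted p = 0.0976). The shares of all genes with the other pseudocount, within the sets and at an unadjusted p are not given here. The spread of *Hspa1a* and *Hspa1b* grows with a median that leaves 0, so that level and spread cannot be told apart for this pair.

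Covariation between the members was described by Spearman's rho of log2(CPM + 1) over the cells of a group. These values carry no test, since the points are cells whose levels share a total. Over all 45 pairs the median rho was 0.23 in P14_WT IHCs, 0.22 in P14_iOHCs and 0.15 in P30_WT IHCs. Over the 21 pairs of the 7 members with counts in at least 50% of the cells of every group it was 0.39, 0.27 and 0.23, against medians of 0.01, 0.02 and 0.01 and 95th percentiles of 0.24, 0.30 and 0.26 over all pairs of the 6850 genes detected as widely. Within the sets of totals the value for the P14_WT IHCs was lower, at 0.22 in the lower and 0.16 in the upper set, compared with 0.40 and 0.22 in P14_iOHCs and 0.31 and 0.18 in P30_WT IHCs. The part of the difference between the sets in the covariation over all P14_WT IHCs was not tested.

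**Figure D5:**
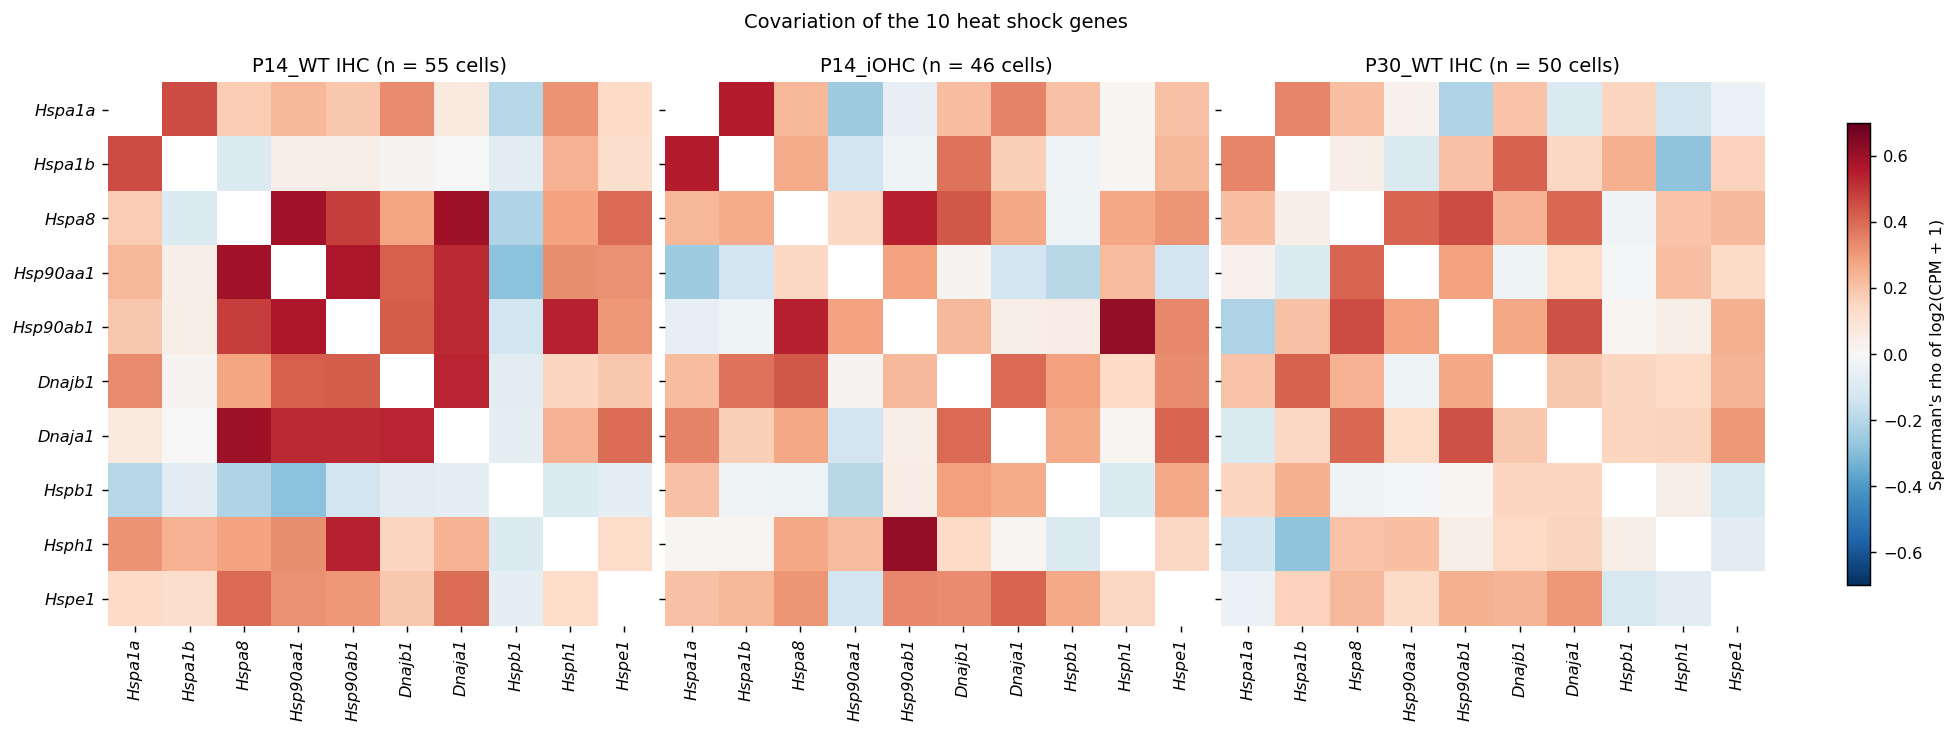
Spearman's rho of log2(CPM + 1) for each pair of the 10 heat shock genes, over the cells of each group (red positive, blue negative, diagonal blank). The block of *Hspa8*, *Hsp90aa1*, *Hsp90ab1* and *Dnaja1* is at 0.49 to 0.60 in P14_WT IHCs, and the row of *Hsp90aa1* is at 0.02 or lower for 6 of 9 genes in P14_iOHCs.

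The abundant chaperones covaried in P14_WT IHCs. *Hspa8*, *Hsp90aa1*, *Hsp90ab1* and *Dnaja1* had a rho of 0.49 to 0.60 with each other over 55 cells, but of 0.22 to 0.37 over the 39 cells of the upper set and 0.28 to 0.65 over the 16 cells of the lower set. In the same 55 cells their rho with the mitochondrial share was -0.68 for *Hspa8*, -0.33 for *Hsp90aa1*, -0.60 for *Hsp90ab1* and -0.59 for *Dnaja1*. In the same order it was -0.56, 0.05, -0.42 and -0.32 within the upper set and -0.36, -0.35, -0.23 and -0.85 within the lower set. The part of the mitochondrial share was not tested. The pair of *Hspa8* and *Hsp90ab1*, with a rho of 0.49, 0.54 and 0.46 in P14_WT IHCs, P14_iOHCs and P30_WT IHCs, was the one above 0.45 in every group over all cells, but it had 0.28, 0.78 and 0.57 within the lower set and 0.23, 0.44 and 0.31 within the upper set. Its Pearson's r was 0.48, 0.72 and 0.57, and 0.58, 0.54 and 0.53 once the 2 cells with the most extreme *Hspa8* levels were left out. *Hsp90ab1* and *Hsph1* had a rho of 0.54 in P14_WT IHCs and 0.62 in P14_iOHCs but 0.04 in P30_WT IHCs. In the same order this pair had 0.06, 0.80 and 0.03 within the lower set and 0.39, 0.56 and 0.12 within the upper set. Over all cells *Hsp90aa1* and *Dnaja1* had a rho of 0.52, -0.14 and 0.13. Whether these values differ between the groups was not tested.

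Pairs among the inducible genes *Hspa1a*, *Hspa1b*, *Dnajb1*, *Hspb1* and *Hsph1* had mixed values. *Hspa1a* and *Hspa1b* had a rho of 0.46 in P14_WT IHCs, 0.55 in P14_iOHCs and 0.34 in P30_WT IHCs, with 0.48, 0.55 and 0.00 within the upper set. *Hspa1b* and *Dnajb1* had 0.02, 0.38 and 0.41. *Hsph1* had 0.31, 0.01 and -0.13 with *Hspa1a* and 0.24, 0.01 and -0.28 with *Hspa1b*, and *Hspb1* had -0.20, 0.20 and 0.15 with *Hspa1a* and -0.10, -0.10 and 0.04 with *Hsph1*. The sum of *Hspa1a* and *Hspa1b* had a mean rho over the 3 groups of 0.30 with *Dnajb1*, 0.16 with *Hspe1*, and between -0.06 and 0.10 with *Hspa8*, *Hsp90aa1*, *Hsp90ab1*, *Dnaja1*, *Hspb1* and *Hsph1*.

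Outside the members, 6843 genes with counts in at least 50% of the cells of every group were ranked by this mean rho with the sum of *Hspa1a* and *Hspa1b*, whose median was 0.04 and 95th percentile 0.20. Among the highest were *Ccn1* (0.39), *Gm10241* (0.36), *Rims2* (0.35), *Rps2-ps6* (0.35), *Gm5909* (0.33), *Zmym2* (0.33) and *Tra2b* (0.33). *Ccn1*, which encodes a secreted matrix protein and responds early to growth factors, had a rho of 0.46 in P14_WT IHCs, 0.39 in P14_iOHCs and 0.33 in P30_WT IHCs. *Rims2* encodes a protein of the presynaptic active zone, *Tra2b* a splicing factor, and *Gm10241*, *Rps2-ps6* and *Gm5909* are named gene models or pseudogenes. Ranks among 6843 values carry no test, and 0 of these 7 belong to the lists of chaperones described next.

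Over both sets together the immediate-early score was 3.27 ± 0.89 in P14_WT IHCs, 3.82 ± 1.83 in P14_iOHCs and 3.72 ± 1.00 in P30_WT IHCs (mean ± SD over 55, 46 and 50 cells). In P14_iOHCs, where it varied most, rho with the score was 0.52 for *Dnajb1*, 0.48 for *Dnaja1* and 0.45 for *Hspa1a* but -0.49 for *Hsp90aa1*. The first 3 were 0.57, 0.43 and 0.28 within the upper set and 0.43, 0.47 and 0.59 within the lower set. The value of *Hsp90aa1* was -0.51 in each set of totals, whereas in P14_WT IHCs *Hsp90aa1* had a rho of 0.47 with the score. *Hsp90aa1* also had a rho of -0.52 with the supporting-cell score and -0.51 with the number of detected genes in P14_iOHCs. In the same cells *Hspa1a* had a rho of 0.45 with the number of detected genes and 0.39 with the total. The part of dissociation in the levels of the chaperones was not tested.

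Other chaperones and their regulators were described from lists of the pathway. The counts of each list stand against the shares over all genes tested. These shares are for calls by edgeR at an adjusted p under 0.05. None is given here for counts at an unadjusted p, or by DESeq2 or limma. In P14_iOHCs 8.86% of all genes were higher and 5.45% lower, and within the upper set 6.71% and 4.05%. In P30_WT IHCs 2.02% were higher and 2.38% lower, and within the upper set 1.41% and 1.87%. Whether any list exceeds these shares was not tested. Of 15 tested genes of 17 that encode further Hsp70 and Hsp110 proteins and their nucleotide exchange factors, 2 were higher and 0 lower in P14_iOHCs. *Bag3*, which joins Hsp70 to small heat shock proteins and is induced with them, rose from 0.189 ± 0.984 CPM (SD, n = 55 cells) to 11.8 ± 22.3 CPM (SD, n = 46 cells), a log2 fold change of 5.98 ± 1.06 (SE, edgeR, adjusted p = 4.34e-06). *St13*, the Hsp70-interacting protein Hip, had 0.81 ± 0.16 (SE, edgeR, adjusted p = 3.45e-05). In P30_WT IHCs 3 of 15 were higher and 0 lower, and within the upper set 1 of 14. *St13* was at 0.77 ± 0.15 over all cells (SE, edgeR, adjusted p = 0.000181) but at 0.51 within the upper set (edgeR, adjusted p = 0.0939). Also higher was the Hsp110 gene *Hspa4l* at 0.69 ± 0.11 (SE, edgeR, adjusted p = 8.38e-07), which had 0.59 within the upper set (edgeR, adjusted p = 0.000653).

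Among 14 tested further J-proteins of 15, 2 were higher and 0 lower in P14_iOHCs, *Dnajc6* (auxilin, which works with Hsc70 on clathrin coats) with a log2 fold change of 1.32 ± 0.25 (SE, edgeR, adjusted p = 2.01e-05) and *Dnajb6* with 0.85 ± 0.17 (SE, edgeR, adjusted p = 3.28e-05). In P30_WT IHCs 0 of 14 were called by edgeR, 0 at an unadjusted p under 0.05, 0 by DESeq2 and 1 by limma. Of the Hsp90 co-chaperones, 1 of 17 tested was lower in P14_iOHCs, *Cdc37l1* at -1.46 ± 0.52 (SE, edgeR, adjusted p = 0.0408), which was not called within the upper set (edgeR, adjusted p = 0.0723). In P30_WT IHCs the immunophilin *Fkbp4* fell by 0.85 on the log2 scale (edgeR, adjusted p = 0.00426), and *Ptges3*, the co-chaperone p23, rose by 0.46 (edgeR, adjusted p = 0.0122), 2 of 16 tested. Within the upper set *Fkbp4* was at -0.999 (edgeR, adjusted p = 0.0197) and *Ptges3* at 0.22, which was not called (edgeR, adjusted p = 0.830). The small heat shock gene *Cryab* was 31.5-fold higher in P14_iOHCs (103 ± 216 CPM, SD, n = 46 cells, against 3.29 ± 16.1 CPM, SD, n = 55 cells; edgeR, adjusted p = 7.29e-05), the 1 called of 3 tested of 9, while *Hspb3* and *Cryaa* had no count in any group.

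The chaperonin TRiC and prefoldin, with 14 genes tested, and 9 further mitochondrial chaperones had 0 genes called by edgeR or DESeq2 in either comparison. At an unadjusted p under 0.05 TRiC and prefoldin had 1 gene in P14_iOHCs and 2 in P30_WT IHCs, as limma called, and the mitochondrial chaperones had 0. The heat shock factors and their binding protein, with 4 of 6 tested, had 0 called by edgeR, DESeq2 or limma and 0 at an unadjusted p under 0.05. *Hsf1*, the main factor of the heat shock response, was at 51.8 ± 57.4 CPM in P14_WT IHCs, 33.3 ± 60.3 CPM in P14_iOHCs and 58.8 ± 49.6 CPM in P30_WT IHCs (mean ± SD over 55, 46 and 50 cells), with log2 fold changes of -0.58 ± 0.72 (SE, edgeR, adjusted p = 0.739) and 0.25 ± 0.57 (SE, edgeR, adjusted p = 0.970). *Hsf2* had -0.50 ± 0.56 (SE, edgeR, adjusted p = 0.701) and 0.15 ± 0.51 (SE, edgeR, adjusted p = 0.983). Of 11 other genes that heat induces, 3 of 10 tested were higher and 1 lower in P14_iOHCs, with *Rgs2* at 4.04 ± 1.02 (SE, edgeR, adjusted p = 0.0018), *Ier5* at 2.89 ± 1.00 (SE, edgeR, adjusted p = 0.0366, against 0.0739 within the upper set) and the ubiquitin gene *Ubb* at -0.29 ± 0.08 (SE, edgeR, adjusted p = 0.00426). In P30_WT IHCs 0 of 8 tested were called by edgeR, DESeq2 or limma, and 0 had an unadjusted p under 0.05. The immediate-early genes had 7 of 15 tested called higher and 0 lower in P14_iOHCs (3 higher within the upper set), with *Egr2* at 4.58 ± 1.07 (SE, edgeR, adjusted p = 0.000705) and *Ier2* at 2.53 ± 0.68 (SE, edgeR, adjusted p = 0.00406), and 0 of 13 in P30_WT IHCs (5 at an unadjusted p under 0.05, 3 by DESeq2 and 1 by limma). *Bag3* and *Cryab* rose in the comparison in which supporting-cell, glial and fibroblast markers also changed, as given for *Hspb1*. The part of those cell types in *Bag3* and *Cryab* was not tested. *Bag3*, *Cryab*, *Rgs2*, *Ier5* and *Egr2* had low mean levels in P14_WT IHCs. Like *Hspb1*, these genes may have met the filter of the test mainly through the P14_iOHCs, and so had to differ to be tested. How many cells of each group met the filter is not given here for these genes.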

How the data were processed

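Single cells were picked from dissociated cochleae, and their cDNA was made with a Smart-Seq HT kit and sequenced as 1 library per cell. The authors deposited raw read counts per gene for each cell, which were used as counts, with 0 columns outside the labelled samples. The submitters' processing notes name FastQC 0.11.9, Trimmomatic 0.39, HISAT2 2.1.0, StringTie 1.3.5 and HTSeq 0.10.0, and the genome build mm10. The annotation release, the strand setting and the treatment of reads that map to several places are not given in the sources used here. Without a known strand setting, reads of *Hspa1a* and of the antisense gene *Gm20481*, which overlaps 564 of its exon bases, cannot be told apart.

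Groups were taken from the labels. The 10 members, the gene lists and the tests were chosen with earlier results of these data known. Groups were compared with edgeR 4.0.16 (quasi-likelihood test, TMM, R 4.3.3) on genes that reached 5 counts in 10 or more cells, with Benjamini-Hochberg adjustment over all genes tested and a threshold of 0.05. Alternatives used DESeq2 1.42.0, limma 3.58.1, other filters and scalings, covariates, thinning to the 10th percentile of totals, and removal of cells over 3 median absolute deviations from the median. Levels were given in CPM and, between genes, in TPM over union exon lengths, which 53186 of 55291 genes had. Spread and correlation used log2(CPM + 1), the spread as the absolute deviation from the group median, tested with limma. Named were the 10 members, up to 4 genes per list and comparison with an adjusted p under 0.05, the largest fold changes and a count in 50% or more of the cells in the group with the higher level, *Hspd1*, *Hsf1* and *Hsf2* in any case, the 8 genes most like *Hspa1a* and *Hspa1b* (1 of which is not reported here), and genes that check the labels. Intervals of shares are 95% Wilson intervals. The edgeR fit was tested on simulated data. Python 3.11.15, numpy 2.4.6, pandas 2.3.3, scipy 1.17.1 and matplotlib 3.10.9 were used for the rest. Promoter sequences were read from a RefSeq table on GRCm38.p6 and gene positions from the GRCm38 annotation. The interaction of group and set of totals, the correlation over 7 members and the levels by set were added after the data were seen.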

Additional observations from a re-analysis of the deposited data

Results flagged for a closer look

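For 5 of the 10 genes, counted over either or both comparisons, the difference between groups itself differed between the cells with lower and with upper total counts (interaction in edgeR, Benjamini-Hochberg adjusted over all genes). Of all genes tested, 6.63% had such an interaction in the comparison of P14_iOHCs and 4.39% in that of P30_WT IHCs. Between P14_iOHCs and P14_WT IHCs, the log2 fold change in the upper set minus that in the lower set was -0.64 for *Hsp90aa1* (edgeR, adjusted p = 0.0414), -0.83 for *Hsp90ab1* (edgeR, adjusted p = 0.0156) and -1.73 for *Hspe1* (edgeR, adjusted p = 0.0461). Between P30_WT IHCs and P14_WT IHCs it was -0.87 for *Hspa8* (edgeR, adjusted p = 0.00512), -0.88 for *Hsp90aa1* (edgeR, adjusted p = 0.000245), -0.84 for *Hsp90ab1* (edgeR, adjusted p = 0.0012) and -1.93 for *Hsph1* (edgeR, adjusted p = 0.0100). Both comparisons share the P14_WT IHCs, whose medians in the lower and upper set were 2208 and 3275 CPM for *Hspa8*, 2332 and 3734 CPM for *Hsp90aa1*, 1583 and 2691 CPM for *Hsp90ab1*, 55.3 and 156 CPM for *Hsph1* and 46.9 and 145 CPM for *Hspe1*. What else differs between the sets was not tested.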

How the results depend on the processing

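Of the fold changes of single genes under other settings, 135 kept their direction and side of the threshold in each comparison, and *Hsp90aa1* at P30 passed under all 17 settings. The 2 members called in P14_iOHCs became 1 with DESeq2, with filterByExpr and with the immediate-early score, the supporting-cell score or the number of detected genes as a covariate, and also 1 among cells of the lower set but 5 among those of the upper set. The 4 called in P30_WT IHCs became 1 in the upper set and 5 in the lower set. In the lower set, the fold changes in P14_iOHCs turned to 0.28 for *Hspa8*, 0.29 for *Hsp90aa1*, 0.26 for *Hsp90ab1*, 0.67 for *Dnaja1* and 0.71 for *Hspe1*. *Hsph1* in P14_iOHCs, at 0.00, turned to -0.0108 with DESeq2 and with its size factors, -0.0518 without TMM, -0.0278 without a filter, -0.0252 with thinned counts, -0.0027 with filterByExpr, -0.23 with limma, -0.12 without outlying cells and -0.39 in the upper set. In P30_WT IHCs *Hspa8* turned to -0.0120 and *Hspe1* to -0.0748 in the upper set. The cause was not tested.

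Of all genes, 1956 were called in P14_iOHCs, against 9887 without a filter, 1018 with filterByExpr, 3383 with limma and 182 in the lower set, where fewer cells and genes were tested. In P30_WT IHCs 570 were called, against 7533, 365, 1454 and 150. The members with a changed spread numbered 1 in P14_iOHCs (0 in the lower and 2 in the upper set) and 2 in P30_WT IHCs (1 with a pseudocount of 0.1, 1 in the lower and 0 in the upper set). For the counts in brackets, the members, their directions and the shares of all genes are not given here. The median correlation in P14_WT IHCs, 0.230, was 0.112 in the lower and 0.0589 in the upper set and 0.395 over 7 well-detected members.

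Cells of different groups share numbers in the labels but no animal is named. With the number as a replicate block, *Dnaja1* in P14_iOHCs was at 0.0192 and *Hsph1* at -0.0077, *Hspa1a* in P14_iOHCs passed (2.86, edgeR, adjusted p = 0.0148), *Hsp90ab1* did not (-0.25, edgeR, adjusted p = 0.131), *Hspa1b* at P30 passed (6.99, edgeR, adjusted p = 0.00128), and 874 genes were called at P30. Deviations of same-numbered cells had median correlations of -0.00209 over 46 pairs and 0.00430 over 50 pairs, with 0 over 0.1, and 0 and 1 cells correlated best with their own number, so the numbers do not pair the cells. Genes with few counts, such as *Hspb1* in WT IHCs, could not be compared at this depth.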
